A study of Rattus norvegicus with 9 samples.

Results

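Expression of 5 genes of the p53 and growth arrest response, Aen, Zmat3, Plk2, Gadd45a and Gadd45b, was described in 4T1 cells, a mouse mammary carcinoma line. The genes were chosen by symbol. All 5 were found among the 2392 genes of the deposited table, and all 5 were among the 1747 that passed the limit on low values and were tested. Polyadenylated RNA was sequenced in 9 libraries. They came from cells given nanoparticles of molybdenum disulfide and near-infrared light (MoS2_NIR, n = 3), cells given the particles without light (MoS2, n = 3), and cells kept in medium (Control, n = 3). The labels describe the MoS2_NIR cells as under photothermal therapy and the other 6 libraries as under normal culture. Light was not given without particles in any group, so the change that came with light was measured only in cells that already held particles. The labels do not state whether each library of a group had its own culture. The p-values therefore rest on the spread between libraries, which may be technical. Dose, wavelength and time were not among the labels used here.

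The transcription factor p53 is stabilised by DNA damage and other stresses and switches on genes that stop the cell cycle, repair DNA or start cell death. Several of its targets also answer signals that do not pass through p53: the GADD45 genes respond to NF-kB, TGF-beta and the unfolded protein response as well. The 4T1 line is commonly described as lacking functional p53. Trp53 itself was not analysed here, nor were the target genes Cdkn1a, Mdm2 and Ccng1, so the state of p53 in these cells was not examined.

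The deposited table gives standardized scores. The expression values behind them were recovered for 2379 genes, the 5 described here included, and their unit is not stated. Values are therefore compared between groups for 1 gene and not between genes. The depth of the libraries is unknown. Across all recovered genes the median value was 3.24 to 3.28 in MoS2_NIR, 1.99 to 2.09 in MoS2 and 1.65 to 2.0 in Control libraries. The authors listed these genes by an unstated criterion, and most of them differ between the groups. The limma call rate, at an adjusted p under 0.05 over the 1747 tested genes, was 97.4% for MoS2_NIR against Control, 47.0% for MoS2 against Control and 87.1% for MoS2_NIR against MoS2. A call on its own therefore does not set any of the 5 genes apart from the table. Over the tested genes, log2 fold changes had a median of 1.01 for MoS2_NIR against Control, 0.17 for MoS2 against Control and 0.68 for MoS2_NIR against MoS2. The split of calls was 1109 higher and 592 lower, 527 and 294, and 1077 and 444 in the same order of comparisons. Median-ratio scaling, which centres each library on the typical listed gene, made it 608 and 634, 229 and 542, and 414 and 611. Quantile normalization, which gives every library the same distribution, made it 985 and 613, 406 and 365, and 688 and 544. Fold changes below are given without such scaling, and the scaled value stands beside them where it ends a call or turns a direction.

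With particles and light, 3 of the 5 genes, Aen, Zmat3 and Plk2, were called higher than in medium, where 63.5% of all tested genes were, and 2, Gadd45a and Gadd45b, were called lower, where 33.9% were. The same 3 genes were called higher and the same 2 lower against particles alone, beside 61.6% and 25.4% of the table. With particles alone 1 of the 5, Aen, was called higher than in medium, against 30.2% of tested genes. Gadd45a and Plk2 were called lower, 2 of 5 against 16.8% of tested genes, and the call of Plk2 rested on single libraries. In bulk RNA, a change in every cell and a change in the share of cells that hold the transcript cannot be told apart.

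**Figure D1:**
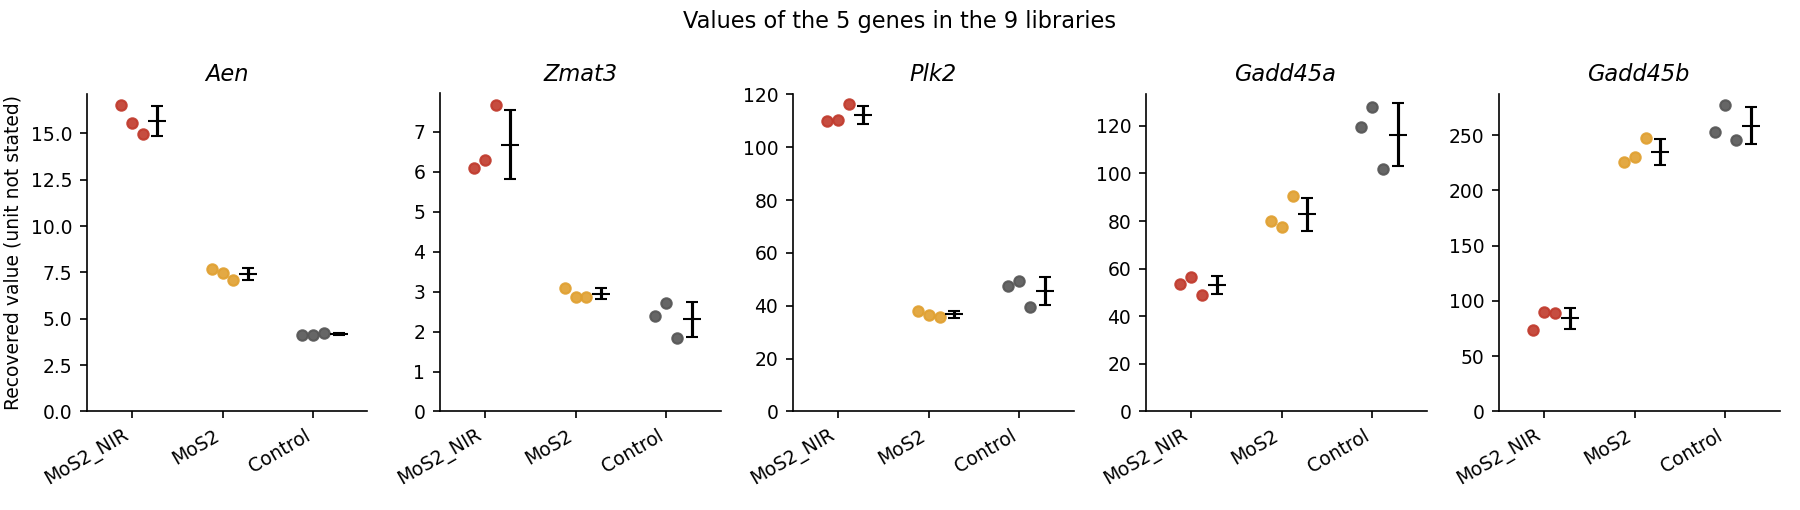
Recovered expression values (unit not stated, linear axis from 0) of the 5 genes in the 3 MoS2_NIR, 3 MoS2 and 3 Control libraries; each point is 1 library, and the bar beside the points is the mean ± SD. Aen, Zmat3 and Plk2 were highest in the MoS2_NIR libraries, Gadd45a and Gadd45b were lowest there, and Plk2 was lowest in MoS2.

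Aen (ENSMUSG00000030609) encodes the apoptosis enhancing nuclease, an exonuclease that p53 induces and that takes part in the breakdown of nucleic acids in dying cells. Its values were 16.5, 15.6 and 14.9 in MoS2_NIR, 7.71, 7.45 and 7.08 in MoS2, and 4.15, 4.12 and 4.23 in Control libraries. The 3 groups did not overlap, and the order was MoS2_NIR, then MoS2, then Control. Non-overlap was common in the table, at 96.4% of tested genes for MoS2_NIR against Control, 57.4% for MoS2 against Control and 87.4% for MoS2_NIR against MoS2. The mean was 15.7 ± 0.801 in MoS2_NIR and 4.17 ± 0.0569 in Control (SD, n = 3 each), a ratio of 3.76 (log2 fold change of value + 1 of 1.69, SE 0.095, limma adjusted p = 1.03e-07). In MoS2 the mean was 7.41 ± 0.317, or 1.78 times that of Control (log2 fold change 0.70, SE 0.095, limma adjusted p = 0.000574). Against MoS2 the MoS2_NIR cells were 2.12 times as high (log2 fold change 0.99, limma adjusted p = 8.02e-06), a difference that median-ratio scaling took below the threshold (0.24, limma adjusted p = 0.0508). Aen was thus higher with particles alone by more than most of the table: its log2 fold change was at percentile 93.1 of the tested genes for MoS2 against Control, at 89.1 for MoS2_NIR against Control and at 75.6 for MoS2_NIR against MoS2.

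Zmat3 (ENSMUSG00000027663), also known as Wig1, encodes a zinc finger protein that binds RNA, acts on the splicing and stability of messenger RNAs and is a direct target of p53. Its values were 6.08, 6.28 and 7.66 in MoS2_NIR, 3.10, 2.86 and 2.86 in MoS2, and 2.38, 2.71 and 1.84 in Control libraries. The MoS2_NIR libraries stood apart from both other groups, while the lowest MoS2 value was only just above the highest Control value. The mean was 6.67 ± 0.860 in MoS2_NIR and 2.31 ± 0.439 in Control (SD, n = 3 each), a ratio of 2.89 (log2 fold change 1.22, SE 0.13, limma adjusted p = 5.5e-06). This rise was 0.20 above the median log2 fold change of the table and stood at percentile 64.5 of the tested genes, so Zmat3 moved about as far as the typical listed gene. Against MoS2, with a mean of 2.94 ± 0.139, the ratio was 2.27 (log2 fold change 0.96, limma adjusted p = 6.81e-05), which did not pass under median-ratio scaling (0.29, limma adjusted p = 0.0559). Between MoS2 and Control the difference did not pass (log2 fold change 0.26, 95% interval -0.034 to 0.55, limma adjusted p = 0.125).

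Plk2 (ENSMUSG00000021701) encodes polo-like kinase 2, a serine/threonine kinase that acts in G1 phase and in centriole duplication and is induced by p53 and by serum. Its values were 110, 110 and 116 in MoS2_NIR, 38.2, 36.5 and 35.7 in MoS2, and 47.4, 49.5 and 39.5 in Control libraries. No MoS2 value reached the lowest Control value, and every MoS2_NIR value was above all others. The mean was 112 ± 3.57 in MoS2_NIR and 36.8 ± 1.24 in MoS2 (SD, n = 3 each), a ratio of 3.05 (log2 fold change 1.58, SE 0.10, limma adjusted p = 9.74e-07). That change was at percentile 96.8 of the tested genes, while those of MoS2_NIR against Control and MoS2 against Control were at 70.2 and 23.7. The 1 added before the logarithm shrinks the changes of genes with low values, so such ranks depend on it. With 0.1 added in its place, Plk2 in MoS2_NIR against Control was at 1.31. The median of the tested genes was then 1.32. Against Control, with a mean of 45.4 ± 5.29, the MoS2_NIR cells were 2.47 times as high (log2 fold change 1.29, SE 0.10, limma adjusted p = 5.41e-07), but with median-ratio scaling the log2 fold change was 0.16 and did not pass (limma adjusted p = 0.0780).

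With particles alone Plk2 was at 0.810 times its Control mean (log2 fold change -0.29, SE 0.10, limma adjusted p = 0.0341). That call ended when Control replicate 1 or 2, any 1 of the 3 MoS2 libraries or MoS2_NIR replicate 2 was left out, with a highest limma adjusted p of 0.105. It also ended when only the MoS2 and Control libraries were fitted (0.0567) and with the replicate number as a block (0.0573).

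Gadd45a (ENSMUSG00000036390) encodes a small stress protein that binds PCNA and the CDK1 and cyclin B complex and activates the kinase MAP3K4 upstream of p38 and JNK. Its values were 53.6, 56.5 and 49.1 in MoS2_NIR, 80.2, 77.5 and 90.6 in MoS2, and 119, 128 and 102 in Control libraries. The 3 groups did not overlap, and their order was the reverse of that of Aen. The mean was 53.1 ± 3.73 in MoS2_NIR and 116 ± 13.3 in Control (SD, n = 3 each), a ratio of 0.456 (log2 fold change -1.11, SE 0.11, limma adjusted p = 2.49e-06). In MoS2 the mean was 82.8 ± 6.93, or 0.712 times that of Control (log2 fold change -0.48, SE 0.11, limma adjusted p = 0.00594). MoS2_NIR was 0.641 times as high as MoS2 (log2 fold change -0.63, limma adjusted p = 0.000292). Its fold changes stood at percentiles 10.9, 12.7 and 13.6 of the tested genes for MoS2_NIR against Control, MoS2 against Control and MoS2_NIR against MoS2. All 3 calls held under both scalings and without any 1 library.

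Gadd45b (ENSMUSG00000015312) encodes the paralog that NF-kB and TGF-beta induce and that restrains JNK signalling through MAP2K7. Its values were 73.3, 90.2 and 89.5 in MoS2_NIR, 225, 230 and 248 in MoS2, and 252, 277 and 245 in Control libraries. The MoS2_NIR libraries were far below the rest, and the MoS2 and Control libraries overlapped. The mean was 84.3 ± 9.56 in MoS2_NIR and 258 ± 16.8 in Control (SD, n = 3 each), a ratio of 0.326 (log2 fold change -1.61, SE 0.099, limma adjusted p = 1.62e-07). Against MoS2, with a mean of 234 ± 11.8, the ratio was 0.360 (log2 fold change -1.47, limma adjusted p = 1.06e-06), which placed Gadd45b at percentile 1.49 of the tested genes, close to the largest decreases of the table.

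Between MoS2 and Control the change of Gadd45b did not pass (log2 fold change -0.14, 95% interval -0.36 to 0.079, limma adjusted p = 0.251). Its direction depended on the scaling: median-ratio scaling gave a log2 fold change of -0.47 (limma adjusted p = 0.00515), and quantile normalization gave 0.041 (0.735).

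**Figure D2:**
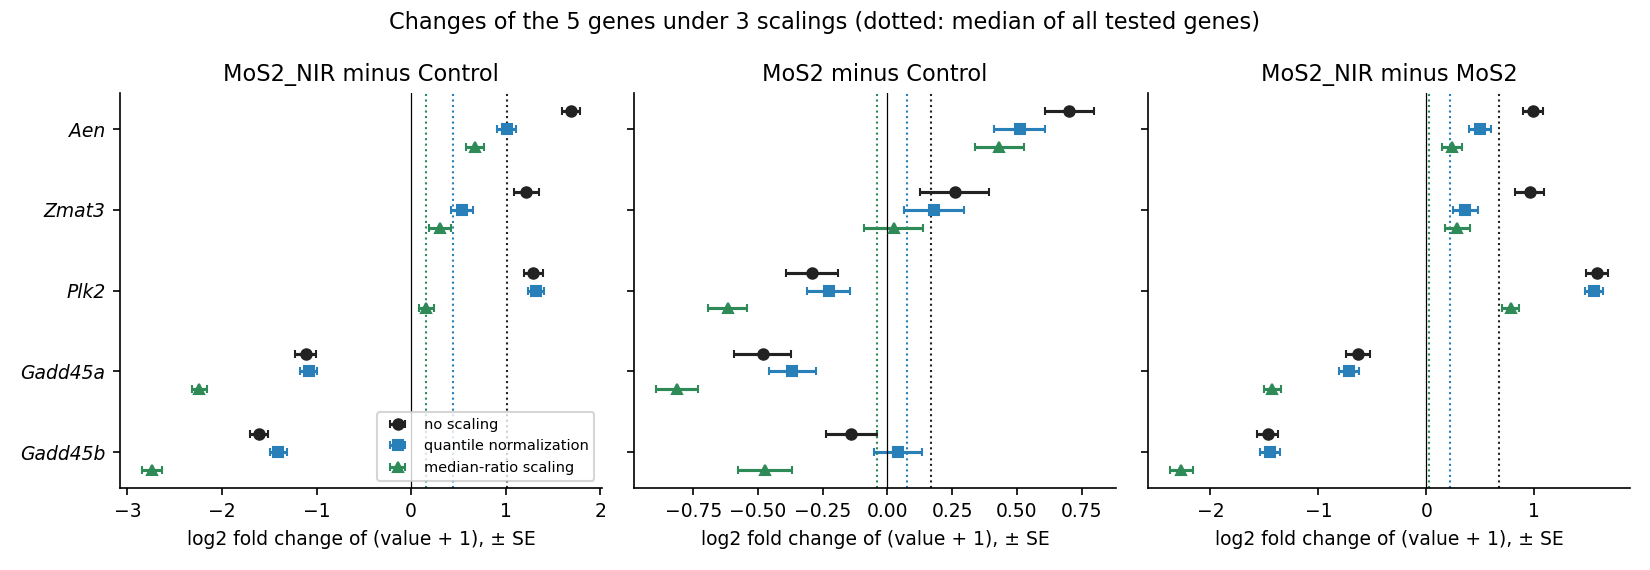
Log2 fold changes of (value + 1) ± SE of the 5 genes in the 3 comparisons, without scaling, after quantile normalization and after median-ratio scaling; dotted lines mark the median of all tested genes under each. Gadd45a and Gadd45b were below 0 in both comparisons with MoS2_NIR under all 3, and Plk2 in MoS2_NIR against Control was at 1.29 without scaling and at 0.16 with median ratios.

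Whether light changed a gene by a different amount than particles had done was tested as the change from MoS2 to MoS2_NIR minus the change from Control to MoS2. Both changes share the MoS2 libraries, and 27.0% of the tested genes were called in this contrast, 22.2% higher and 4.87% lower. Of the 5 genes, 2 were called higher, Plk2 and Zmat3, and 1, Gadd45b, was called lower. For Plk2 the difference was 1.87 on the log2 scale (SE 0.17, limma adjusted p = 0.000137) and for Gadd45b it was -1.33 (SE 0.17, limma adjusted p = 0.000711). Both calls held under every alternative tried. Aen and Gadd45a took steps whose sizes were not told apart. Their differences were 0.28 (95% interval -0.079 to 0.65, limma adjusted p = 0.215) for Aen and -0.15 (95% interval -0.57 to 0.27, limma adjusted p = 0.581) for Gadd45a. The difference for Aen was below 0 with median-ratio scaling (-0.19, limma adjusted p = 0.443) and with quantile normalization (-0.012, limma adjusted p = 0.965). For Gadd45a the first of these scalings gave -0.61 (limma adjusted p = 0.0135). For Zmat3 the difference was 0.70 (SE 0.23, limma adjusted p = 0.0457). That call ended without any 1 library other than Control replicate 3, with a highest limma adjusted p of 0.134, and with either scaling (0.390 for median ratios and 0.563 for quantiles).

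**Figure D3:**
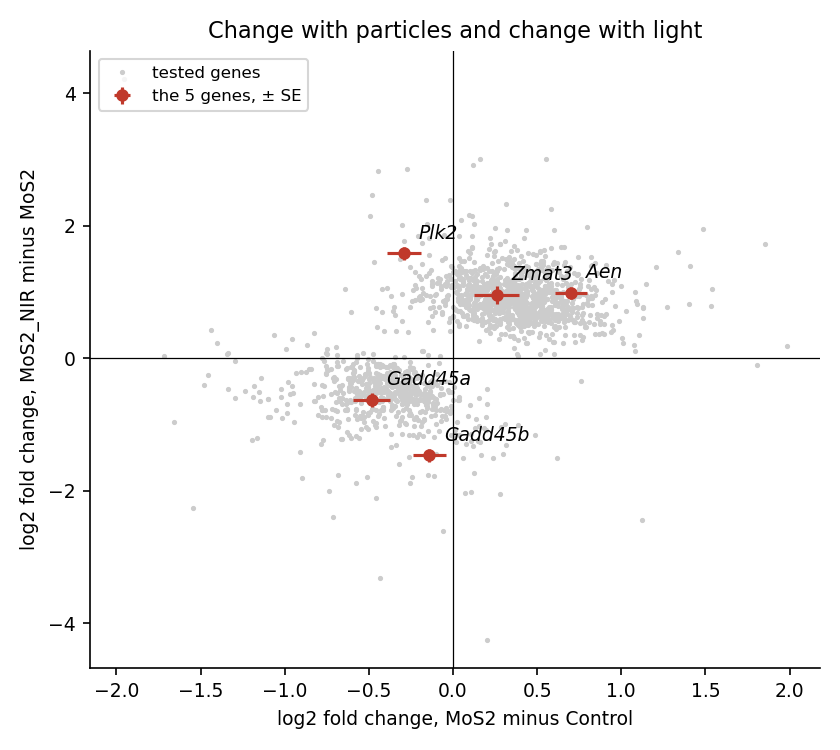
Log2 fold change of MoS2_NIR minus MoS2 (vertical) against MoS2 minus Control (horizontal) for all tested genes (grey points) and the 5 genes (red, ± SE); both axes use the MoS2 libraries. Plk2 lies above the horizontal line and left of the vertical one, at 1.58 and -0.29, and Gadd45b lies at -1.47 and -0.14.

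The paralogs Gadd45a and Gadd45b were also compared with each other. The ratio of the Gadd45b value to the Gadd45a value within a library is not affected by a scaling that divides each library by 1 factor, such as median-ratio scaling, but quantile normalization can change it. It was 1.37, 1.60 and 1.82 in MoS2_NIR, 2.81, 2.96 and 2.73 in MoS2, and 2.11, 2.17 and 2.41 in Control libraries. The 3 groups did not overlap: the ratio was highest with particles alone and lowest with particles and light. Single genes often did not overlap either, at 96.4% of tested genes for MoS2_NIR against Control. The share was 57.4% for MoS2 against Control and 87.4% for MoS2_NIR against MoS2. How often ratios of other gene pairs separate the groups was not computed, so the non-overlap does not set this pair apart. Against Control the ratio was 0.712 times as high in MoS2_NIR (log2 difference -0.49) and 1.27 times as high in MoS2 (0.35), and against MoS2 it was 0.559 times as high in MoS2_NIR (-0.84). In each of the 3 comparisons the exact two-sided permutation test gave p = 0.1, the smallest that 3 libraries against 3 allow, so none can pass 0.05.

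Of the related genes written down for the families of the 5, only Gadd45g and Plk3 were in the table (2 of 16). Gadd45g, the third GADD45 gene, was 25.6, 47.1 and 39.9 in MoS2_NIR, 90.4, 88.0 and 101 in MoS2, and 87.0, 87.6 and 82.0 in Control libraries. It fell to 37.5 ± 10.9 in MoS2_NIR, against 85.5 ± 3.08 in Control (SD, n = 3 each; log2 fold change -1.21, limma adjusted p = 5.57e-05) and 93.2 ± 6.96 in MoS2 (-1.33, limma adjusted p = 5.61e-05). Between MoS2 and Control it was not called (0.12, limma adjusted p = 0.578), and its sign turned with median-ratio scaling (-0.21, limma adjusted p = 0.402). All 3 GADD45 genes were therefore lower in cells with particles and light. Without scaling, Gadd45a was called lower with particles alone and Gadd45b and Gadd45g were not. Median-ratio scaling called Gadd45b lower too (-0.47, limma adjusted p = 0.00515), and quantile normalization did not (0.041, limma adjusted p = 0.735). The difference from Gadd45a was not tested for Gadd45g, and for Gadd45b the permutation test of the ratio could not pass 0.05.

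Plk3, a polo-like kinase that responds to stress and is a p53 target, was 29.3, 31.3 and 32.1 in MoS2_NIR, 8.53, 10.49 and 10.54 in MoS2, and 6.95, 7.62 and 5.62 in Control libraries. It rose to 30.9 ± 1.42 in MoS2_NIR, against 6.73 ± 1.02 in Control (SD, n = 3 each; log2 fold change 2.05, limma adjusted p = 1.57e-07). In MoS2 it was 9.85 ± 1.15 and was called higher than Control (log2 fold change 0.49, limma adjusted p = 0.00948). It did not pass with median-ratio scaling (0.20, limma adjusted p = 0.146) or in the fit of the deposited scores, which also had other settings (0.0584). Plk2 and Plk3 were thus both higher with light, while with particles alone the fold change was 0.49 for Plk3 and -0.29 for Plk2 on the log2 scale. The difference between these genes was not tested.

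**Figure D4:**
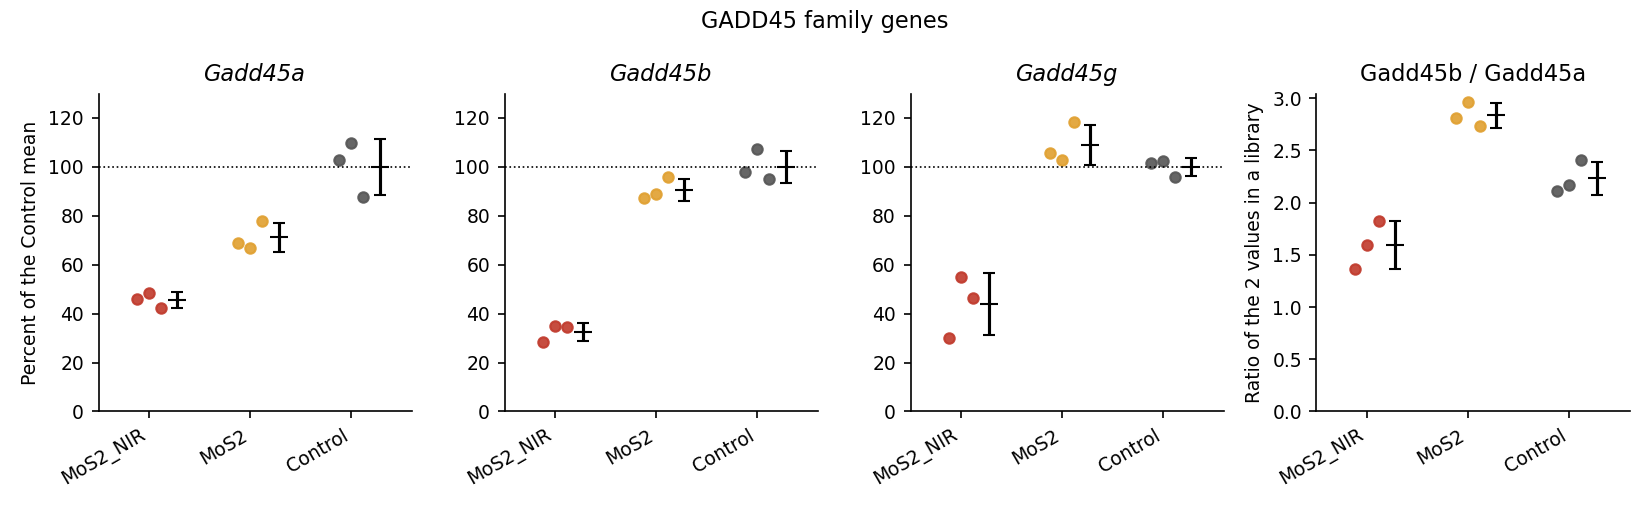
Gadd45a, Gadd45b and Gadd45g in each library as percent of the gene's Control mean (dotted line), and, at the right, the ratio of the Gadd45b value to the Gadd45a value in each library; bars are mean ± SD over 3 libraries. In MoS2_NIR the Gadd45g libraries lie between 29.98 and 55.02 percent of the Control mean, and the ratio lies between 1.37 and 1.82.

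Other p53 targets were counted next. The list held 36 genes besides the 5, chosen with earlier results of these data known, and 8 of them were in the table and tested. Against Control, 5 of the 8 were higher and 3 lower in MoS2_NIR, a split close to that of all tested genes (63.5% higher and 33.9% lower), with a median log2 fold change of 1.31 against 1.01 over all tested genes. With so few genes on both sides of 0, the median moves with each gene that is counted. The higher ones were Sesn2, Plk3, Tigar, Atf3 and Ppm1d, and the lower ones were Fas, Bbc3 and Ak1. The Control values of Tigar (0.46, 0.89 and 0.59) were all under the limit of 1. Tigar was thus tested only through the libraries with particles, where it was higher. Sesn2, which restrains mTORC1 and is also a target of ATF4, was 16.5 ± 1.01 in MoS2_NIR and 2.69 ± 0.121 in Control (log2 fold change 2.24, limma adjusted p = 5.89e-08). Tigar, a fructose bisphosphatase that diverts sugar from glycolysis, was 5.53 ± 0.927 in MoS2_NIR and 0.647 ± 0.220 in Control (1.99, limma adjusted p = 2.85e-06), and the stress transcription factor gene Atf3 was 20.4 ± 5.02 and 5.33 ± 0.622 in the same groups (1.74, limma adjusted p = 1.87e-06). The call of Ppm1d, the phosphatase WIP1 that switches off p53, did not hold with median-ratio scaling (0.019 on the log2 scale, where it was 0.89 unscaled, limma adjusted p = 0.889) or quantile normalization (0.105).

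The 3 lower targets were singled out with their values known. They include genes that drive cell death. Bbc3, which encodes the death protein PUMA, was 11.1 ± 1.30 in MoS2_NIR and 20.03 ± 4.16 in Control (log2 fold change -0.79, limma adjusted p = 0.000513). The death receptor gene Fas was 8.88 ± 1.66 in MoS2_NIR and 27.03 ± 0.954 in Control (-1.52, limma adjusted p = 7.62e-07).

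In MoS2 against Control, 4 of the 8 listed targets were higher (Sesn2, Tigar, Plk3 and Atf3) and 1, Fas, was lower. The shares of all tested genes were 30.2% and 16.8%. The median log2 fold change of the listed targets was 0.29, against 0.17 over all tested genes. Tigar, tested only through libraries with particles, was near the floor here, at 1.18, 2.78 and 1.85 in the MoS2 libraries. Median-ratio scaling ended the call of Plk3, as given above, and added one for Ak1, which was at -0.40 unscaled (limma adjusted p = 0.0759) and then at -0.72 (limma adjusted p = 0.00900). Ak1 also passed with only the 2 groups fitted (limma adjusted p = 0.0191) and without MoS2_NIR replicate 3 (0.0142). The call of Fas (limma adjusted p = 0.0312) was lost when Control replicate 1, Control replicate 2 or one of the MoS2 libraries was left out (limma adjusted p of up to 0.102), and with the deposited scores (0.0792). In MoS2_NIR against MoS2, 5 were higher and 2 lower, beside 61.6% and 25.4% of all tested genes, with a median of 0.87 against 0.68. With median-ratio scaling the calls of Atf3 (0.19, limma adjusted p = 0.321) and Ppm1d (0.16, limma adjusted p = 0.286) were lost and Ak1 was called lower (-0.88, limma adjusted p = 0.00177), which left 3 higher and 3 lower. With quantile normalization Ppm1d was lost (limma adjusted p = 0.111) and Ak1 was called lower (-0.68, limma adjusted p = 0.0106), as it was without MoS2_NIR replicate 3 (-0.37, limma adjusted p = 0.0157).

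**Figure D5:**
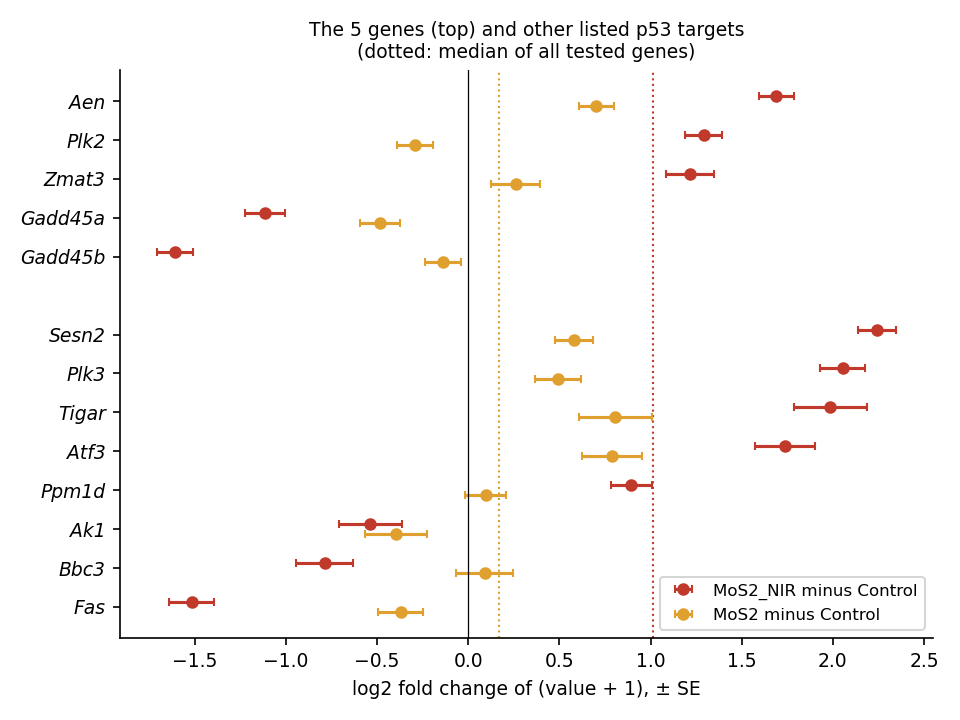
Log2 fold changes of (value + 1) ± SE of the 5 genes (top) and the 8 other tested p53 targets, for MoS2_NIR minus Control and MoS2 minus Control; dotted lines mark the median of all tested genes, 1.01 and 0.17. Genes lie on both sides of 0, from 2.24 for Sesn2 to -1.61 for Gadd45b in MoS2_NIR minus Control.

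Genes that drive the cell cycle were compared because the 5 genes were grouped under p53 and growth arrest. Of 27 listed, 6 were in the table and tested, and in MoS2_NIR against Control 6 were higher and 0 lower, beside 63.5% and 33.9% of all tested genes, with a median log2 fold change of 1.13 against 1.01 over all tested genes. The transcription factor gene Myc was 183 ± 8.82 in MoS2_NIR and 65.5 ± 8.70 in Control (log2 fold change 1.48, limma adjusted p = 3.8e-07), and Cdc25a, the phosphatase that activates CDK2, was 16.3 ± 0.845 and 5.99 ± 1.06 in these groups (1.31, limma adjusted p = 2e-06). The other 4 calls were lost with median-ratio scaling. Ccnd2, a D-type cyclin gene, was then at a log2 fold change of 0.076 and not 1.17 (limma adjusted p = 0.622) and the cyclin E gene Ccne1 at 0.22 in place of 1.10 (0.229). E2f2 was at 0.26 in place of 1.06 (0.410), and Ccne2 was at -0.054, turned from 0.92 (0.648). The calls of E2f2 (limma adjusted p = 0.121) and Ccne2 (0.202) were also lost with quantile normalization. In MoS2 against Control, Ccnd2 was called higher and Myc lower (limma adjusted p = 0.0405 and 0.0444). Both calls were fragile. That of Ccnd2 was lost without 1 of 6 libraries (Control replicate 1 or 3, MoS2 replicate 1, 2 or 3, MoS2_NIR replicate 2), at limma adjusted p of up to 0.134, with median-ratio scaling (0.370), with only the 2 groups fitted (0.0588) and with the deposited scores (0.0649). That of Myc was lost without Control replicate 1 or 2, MoS2 replicate 1, 2 or 3 or MoS2_NIR replicate 2 (up to 0.136), with quantile normalization (0.143), with the deposited scores (0.171), and at 0.0523 to 0.0776 without the filter, without moderation by trend, with only the 2 groups fitted or with a replicate block. Median-ratio scaling added a call for Ccne2 in MoS2 against Control, lower at -0.30 (limma adjusted p = 0.0427), where it was -0.030 unscaled (0.852). Of 23 listed growth arrest genes and inhibitors of cyclin-dependent kinases, Klf6 was the 1 in the table. The 17 listed GADD45 partners and p38 and JNK kinases had 0 genes in it, so neither group can be described.

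The genes most like each of the 5 were taken as the 3 tested genes with the highest Pearson correlation of log2 (value + 1) over the 9 libraries, members and predicted genes aside. The libraries fall into 3 groups, so r mainly reflects the group means and is a description. For Plk2 these were Myc (r = 0.997), Srrm4 (0.992) and Tlcd2 (0.988). Myc was lowest in MoS2 too, at 183 ± 8.82 in MoS2_NIR, 53.1 ± 2.47 in MoS2 and 65.5 ± 8.70 in Control (SD, n = 3 each). For Gadd45b they were Tsc22d3, the glucocorticoid-induced leucine zipper gene (0.998), the interferon regulatory factor gene Irf1 (0.994) and Mab21l4 (0.994). Irf1 was 59.7 ± 2.15 in MoS2_NIR, 205 ± 7.12 in MoS2 and 227 ± 14.5 in Control.

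Gadd45a was most like the complement genes C1ra (r = 0.989) and C3 (0.989) and Denn2b (0.989). C3 was 43.4 ± 1.77 in MoS2_NIR, 81.4 ± 6.0 in MoS2 and 118 ± 13.8 in Control. Aen was most like the alpha-tubulin gene Tuba1c (0.997), Supt7l (0.996) and the ribosome assembly gene Pwp2 (0.996), and Zmat3 was most like the helicase gene Dhx33 (0.993), Gmcl1 (0.993) and Foxn2 (0.992). The number of close genes differed between the 5. Of the 1747 tested genes, 487 had r over 0.95 with Aen and 436 with Zmat3. For Plk2, Gadd45a and Gadd45b there were 101, 112 and 77. These counts use unscaled values, in which 1109 tested genes were called higher in MoS2_NIR than in Control and 592 lower. A rising gene thus had more genes to resemble, and the counts after scaling were not computed.

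Of 8 markers of 4T1 and epithelial cells, Lcn2, Spp1, Csf3 and Mmp9 were in the table, while Epcam, Krt8, Krt18 and Cdh1 were not analysed here. In MoS2_NIR against Control, Lcn2, Spp1 and Mmp9 were lower and Csf3 was higher. The call of Csf3 was lost with median-ratio scaling (limma adjusted p = 0.0612). Of 8 fibroblast markers, Postn was the 1 tested, at 0.523 ± 0.135 in MoS2_NIR and 4.23 ± 0.379 in Control. All its MoS2_NIR values were under the limit of 1, so Postn was tested only through the other groups, where it was higher. Of 10 immune cell markers 0 were in the table. The table holds only genes that the authors listed, so a marker's absence from it says nothing about its expression. The samples are described as 4T1 cells in culture, and whether any other cells were present was not tested.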

How the data were processed

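RNA of 9 libraries of 4T1 cells was measured by sequencing, 3 libraries in each of 3 groups taken from the sample titles. The build mm10 and the tools Cufflinks 2.1.1, Bowtie 0.12.9 and HTSeq are named per the submitters' processing notes, without their roles. The strand setting is not stated, so antisense partners cannot be separated. The labels name the rat as organism, while cell line, build and gene identifiers are of the mouse. The reference at hand is of the rat and was not used, so no sequence or position is given.

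The authors deposited 1 score per gene and library, standardized per gene over the 9 libraries (mean 0 and population SD 1 in 2391 of 2392 genes, and every score 0 in 1). The values behind the scores were recovered as those with a step of 0.01 whose natural log, after adding 1, gives the scores within 3e-09. This worked for 2379 genes (99.46%), and the largest expected number of chance solutions was 2.1e-06. It fixes a gene's level on the assumption that the 9 numbers of steps in value + 1 share no common factor. For 8 genes, none of them among the 5, that factor remains unknown. In a test on simulated data, the right values came back for 199 of 200 genes.

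Tests covered the 1747 genes whose value reached 1 in 3 or more of the 9 libraries (632 did not). Log2 (value + 1) entered a limma fit (version 3.58.1, R 4.3.3, trend and robust moderation) over all 9 libraries (6 residual degrees of freedom). Adjusted p-values are Benjamini-Hochberg values over the 1747 genes. Alternatives were pseudocounts of 0.1 and 5, no filter, median-ratio scaling, quantile normalization, no moderation by trend, fits of only the groups compared, a replicate block, the deposited scores and each library left out. The deposited scores were fitted over 2391 genes with no filter on low values and no trend or robust moderation. The effect of using scores alone was therefore not tested. The plan for tests already provided for values recovered from scores.

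The 5 genes, the lists and the tests were chosen with earlier results of these data known. Most genes were named by rule: the 5, up to 4 called genes of each list with the largest change in MoS2_NIR against Control, and the 3 genes most like each of the 5. Ppm1d, Fas, Bbc3, Ak1, E2f2 and Ccne2 fall outside it and were named with their values known. From the list of p53 targets 1 gene is not reported here and is left out of its counts and medians. The list of proteins that bind AU-rich elements had 0 of 8 genes in the table.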

Additional observations from a re-analysis of the deposited data

How the results depend on the processing

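Of 663 values recomputed for 39 results, 596 kept their direction and their side of the threshold or stayed within 1.5 times a count. The ratio of Gadd45b to Gadd45a was judged by direction alone. Some alternatives cannot move a fold change, such as leaving out a library of a group not compared. The share of unchanged values therefore overstates how far the results were put to the test. For MoS2 against Control, the log2 fold change of Gadd45b was -0.47 with median ratios and 0.041 with quantiles, and that of Plk2 stayed at -0.29 but was not called when only these groups were fitted or with a replicate block, nor with the deposited scores (-0.42 in score units, limma adjusted p = 0.122), which left 1 of the 5 genes lower. Leaving out 1 library gave -0.39 to -0.23 for Plk2 and 1 to 2 genes lower. For MoS2_NIR against Control, Plk2 was 0.16 after median-ratio scaling. For MoS2_NIR against MoS2, that scaling left 1 of the 5 genes called higher, with Aen at 0.24 and Zmat3 at 0.29. In all genes, median-ratio scaling gave 229 higher and 542 lower for MoS2 against Control, 608 higher for MoS2_NIR against Control and 414 higher for MoS2_NIR against MoS2, quantile normalization gave 688 higher for the last, and the scores, fitted over 2391 genes in place of 1747, gave 889 lower for MoS2_NIR against Control.

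For the change with light minus the change with particles, Aen was -0.19 with median ratios and -0.012 with quantiles, and Gadd45a was -0.61 with median ratios, which left 1 of the 5 genes higher and 2 lower. Zmat3 was not called with a pseudocount of 0.1 (0.80, limma adjusted p = 0.0827), with median ratios (0.26), with quantiles (0.18), with a replicate block (0.70, limma adjusted p = 0.0816) or with the scores (1.30 in score units, limma adjusted p = 0.0554), which left 1 of the 5 genes higher. Leaving out 1 library gave 0.61 to 0.80 for Zmat3, and 1 to 2 of the 5 genes higher. Genes called in the whole table were 387 higher and 85 lower, 132 and 218 with median ratios, 194 and 195 with quantiles, and 238 to 531 higher and 49 to 89 lower without 1 library, the lowest of both without MoS2 replicate 2. The cause of these changes was not tested.

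Whether the shared replicate numbers pair the samples is not known. The correlation of deviations from the group means was -0.0804 to 0.0996 over the 9 same-numbered pairs of libraries. The limit set for pairing was 0.1, just above the highest of them. Weak correlations with 3 libraries in a group cannot exclude that same-numbered libraries were handled together. As paired differences the Gadd45b to Gadd45a ratio gave an exact p = 0.25 in each comparison, the smallest that 3 pairs allow. The block moved the count of calls for MoS2 against Control to 504 higher and 272 lower. Depth is unknown, so no limit of detection is given.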

Other observations

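Genes listed for the signals that induce GADD45 genes were also looked up in the table. Egr1, a transcription factor gene of the serum response, was 7.95 ± 2.74 in MoS2_NIR, 2.30 ± 0.517 in MoS2 and 0.747 ± 0.176 in Control (SD, n = 3 each). All Control values of Egr1 were under the limit of 1, so it was tested only through the libraries with particles, where it was higher. It was called higher in MoS2_NIR against Control (log2 fold change 2.31, limma adjusted p = 2.51e-06) and in MoS2 against Control (0.91, limma adjusted p = 0.00865), the last except with a pseudocount of 5 (0.0645). Nfkbia, the NF-kB inhibitor gene that NF-kB itself induces, was 128 ± 1.73 in MoS2_NIR, 250 ± 14.0 in MoS2 and 247 ± 7.92 in Control. It was lower in MoS2_NIR against Control (-0.95, limma adjusted p = 6.19e-07) and not called in MoS2 against Control (0.021, limma adjusted p = 0.817), except after median-ratio scaling, where it was lower (-0.31, limma adjusted p = 0.0144). These were 2 of 20 genes listed for such signals. Nfkbia stands there as a target and inhibitor of NF-kB, not as an inducer of GADD45 genes.

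Of 23 listed genes of p53 and its regulators 2 were tested. Ep300, the acetyltransferase p300 that modifies p53, was 19.2 ± 1.55 in MoS2_NIR and 8.31 ± 0.188 in Control (log2 fold change 1.12, limma adjusted p = 2.25e-06), but did not pass with median-ratio scaling (0.059, limma adjusted p = 0.618). Ppp1r13l, which encodes the p53 inhibitor iASPP, was 23.4 ± 2.05 in MoS2_NIR and 43.2 ± 8.29 in Control (-0.84, limma adjusted p = 0.000283). Klf6, a zinc finger transcription factor that can restrain growth, was 82.4 ± 10.7 in MoS2_NIR, 30.8 ± 1.85 in MoS2 and 30.1 ± 2.75 in Control, and was higher in MoS2_NIR against Control (1.42, limma adjusted p = 7.18e-07).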
